A study of Mus musculus with 12 samples.

Results

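Lalba, Tspan33 and Trim55 are 3 mouse genes, measured here in somatic cells of the embryonic gonad and grouped because each stood lower in control males (XY) than in control females (XX). The probes were those whose accession on the array belongs to 1 of the 3 genes, which gave 4 probes, of which 3 were bright enough to be tested. These are 3 of 13262 named genes tested, among 19176 tested features. The values that chose them are therefore a description: neither the control sex difference nor a comparison that reuses the control embryos is offered as a test. The question was how far mutant males stood toward the level of control females in each gene.

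The 12 arrays held RNA of single embryos at embryonic day 11.5, 3 embryos in each of 4 groups. Mutant males and mutant females were homozygous for the null allele of Jmjd1a (now Kdm3a), and control males and control females were heterozygous for it, so every embryo carried at least 1 null allele. All embryos carried the Nr5a1/CD271 transgene, and cells bearing CD271 were pulled out magnetically from gonads and mesonephroi of a single embryo. The cells compared are therefore those in which the transgene was active, with whatever other cells came along. The labels name no litter, and wild-type embryos were not analysed here.

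Kdm3a encodes an enzyme that removes methyl groups from lysine of histone H3 (H3K9), a mark of silenced chromatin, and is known to be needed for full expression of Sry, the Y-linked gene that turns the bipotential gonad toward testis. Lalba encodes alpha-lactalbumin, the milk protein that joins the galactosyltransferase B4galt1 to form lactose synthase in the mammary gland. Tspan33 encodes a tetraspanin of the TspanC8 group, membrane proteins that bind the protease Adam10, and is also known from red cell precursors. Trim55, or MuRF2, encodes a ubiquitin ligase that binds titin in striated muscle.

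The stretches before the transcription starts of Lalba and Tspan33 are shown because these genes had like levels over the groups below; 2 of the 3 members matched the RefSeq promoter table (GRCm38.p6). The Lalba stretch is chr15:98482684-98482933 on the minus strand, and the Tspan33 stretch is chr6:29693964-29694213 on the plus strand. Each has 250 bases, written 5′ to 3′ toward the start, and capitals mark AACAAT, the core bound by SRY and SOX proteins.
Lalba: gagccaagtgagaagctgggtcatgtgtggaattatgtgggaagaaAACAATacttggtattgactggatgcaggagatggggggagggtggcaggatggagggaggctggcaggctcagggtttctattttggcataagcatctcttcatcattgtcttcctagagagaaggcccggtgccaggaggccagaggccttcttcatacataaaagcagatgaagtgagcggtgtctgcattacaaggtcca
Tspan33: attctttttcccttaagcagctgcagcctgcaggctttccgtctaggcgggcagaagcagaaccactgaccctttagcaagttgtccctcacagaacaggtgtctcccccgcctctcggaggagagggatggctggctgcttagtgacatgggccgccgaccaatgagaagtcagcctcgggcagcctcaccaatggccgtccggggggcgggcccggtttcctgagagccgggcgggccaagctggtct
AACAAT stood once before Lalba, on the sense strand with its first base at position -204 from the start, and was not found in the Tspan33 window. On both strands and in the whole window of 300 bases, 10.7% of 32851 promoters hold it. The NR5A1 core AAGGTCA (4.72% of promoters) and the GATA core AGATAA (11.2%) were in neither window. The E-box CANNTG, present in 72.3% of promoters, occurred at 3 places for Lalba and at 2 for Tspan33. A match is a run of letters, not a site shown to be bound.

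Arrays were usable for all embryos: the scanner software put 58.0% to 65.2% of spots well above background, while the 75th percentile of signal ran from 142.9 to 299.5. Kdm3a averaged 0.91 ± 0.18 (SD) in mutant males against 2.86 ± 0.16 in control males, and 0.62 ± 0.17 in mutant females against 2.89 ± 0.07 in control females. Ddx3y, a Y-linked gene, was well above background on all male arrays and on no female array. Nr5a1, Wt1, Gata4, Lhx9, Emx2 and Cbx2, markers of gonadal somatic cells, were well above background on all 12 arrays. Control males lay on slide 1 with mutant male 1, mutant males 2 and 3 on slide 2 with control females 1 and 2, and mutant females on slide 3 with control female 3, so no slide held both sexes of 1 genotype. The 75th percentile was 175.3 to 220.8 in mutant males, 142.9 to 220.7 in control males, 268.3 to 299.5 in mutant females and 188.7 to 280.0 in control females, so brightness moved with group. Slide and sex cannot be told apart within a genotype. Levels below are log2 of the processed signal over the 75th percentile of its array, differences are log2 with the standard error (SE) of a limma fit over all arrays, and n = 3 embryos per group.

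On average, Lalba in mutant males stood near the level of control females, while Trim55 in mutant males stood at the level of control males; Tspan33 in mutant males stood within the range of control females. Mutant females were the highest group for Lalba and Tspan33. These are levels of RNA from a cell pool, in which fewer cells of a type and less RNA per cell cannot be told apart.

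Lalba had levels of -2.09, -1.78 and -1.47 in mutant males, against -3.86, -3.77 and -3.05 in control males. In mutant females it had -1.18, -0.51 and -0.83, against -1.94, -1.62 and -0.93 in control females. Every mutant male was above every control male, and the mutant males lay within the span of control females but for mutant male 1. The means were -1.78 ± 0.31 (SD) in mutant males, -3.56 ± 0.44 in control males, -0.84 ± 0.33 in mutant females and -1.50 ± 0.51 in control females. From high to low the order was mutant females, control females, mutant males and control males; the first pair overlapped, the second pair overlapped, and the last pair did not. The probe was well above background on all 12 arrays, with signals of 48.0 to 80.0 in mutant males and of 9.85 to 26.7 in control males, so the lowest group was dim.

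Tspan33 had levels of 1.64, 1.58 and 1.64 in mutant males, against 0.53, 0.66 and 0.72 in control males. In mutant females it had 1.98, 2.15 and 1.71, against 1.35, 1.11 and 1.84 in control females. The mutant males hardly differed from each other, and all stood above the control males and inside the range of control females. The means were 1.62 ± 0.037 in mutant males, 0.63 ± 0.096 in control males, 1.95 ± 0.23 in mutant females and 1.43 ± 0.37 in control females (SD). The order was mutant females, mutant males, control females and control males; mutant females and mutant males did not overlap, mutant males and control females did, and control females and control males did not. A second Tspan33 probe was well above background on 1 of 12 arrays, mutant female 2, with levels from -6.43 to -4.77, and gives no check of the first.

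Trim55 had levels of -2.26, -1.96 and -2.60 in mutant males, against -2.61, -1.93 and -2.61 in control males. In mutant females it had -0.69, -1.27 and -0.54, against -0.51, -0.46 and -0.82 in control females. The male groups lay over each other, the female groups lay over each other, and no male reached any female. The means were -2.27 ± 0.32 in mutant males, -2.38 ± 0.40 in control males, -0.84 ± 0.38 in mutant females and -0.60 ± 0.20 in control females (SD). From high to low the order was control females, mutant females, mutant males and control males, and only the step between mutant females and mutant males separated the embryos.

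**Figure D1:**
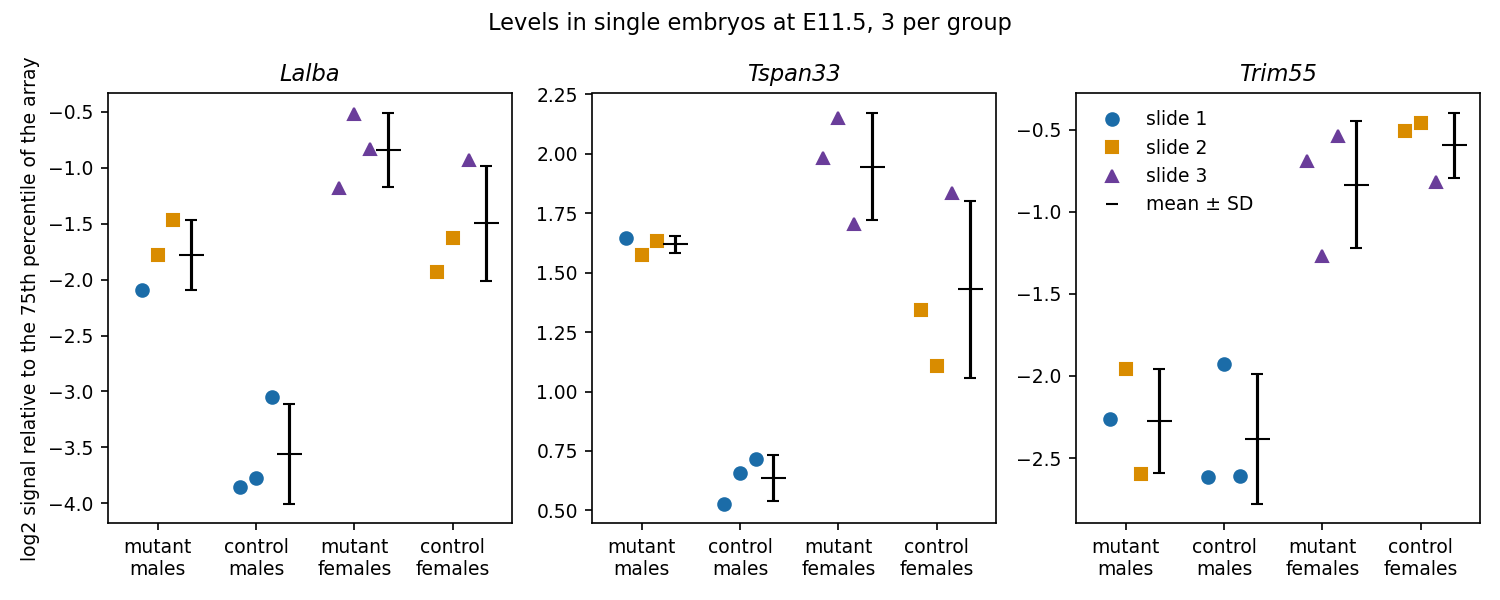
Log2 signal relative to the 75th percentile of the array (y axis) of Lalba, Tspan33 and Trim55 in each embryo of the 4 groups (x axis), with colour and shape for the slide and black bars for mean ± SD (n = 3). Mutant males stand above control males in Lalba and Tspan33, and beside them in Trim55.

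The control sex difference is the one by which the genes were taken. Control males minus control females gave -2.06 ± 0.30 for Lalba, 4.18-fold lower in males, -1.79 ± 0.25 for Trim55, 3.45-fold lower, and -0.79 ± 0.18 for Tspan33, 1.73-fold lower. Lalba and Trim55 were among the features called at a limma adjusted p under 0.05, which took 0.177% of all features (0.0887% in the lower direction), and Tspan33 was not among them. In all 3 genes the control groups did not overlap, as in 5.9% of all features in this direction. The call of Lalba ended without control male 1 or 2 or control female 2 or 3, and that of Trim55 without control male 1 or 3 or any control female, with differences of -2.32 to -1.78 and -2.02 to -1.67 over all arrays left out. Normexp background correction was run with an offset of 50, which narrows log2 differences of dim probes. This offset exceeds the processed signals of Lalba (9.85 to 26.7) and Trim55 (23.3 to 44.6) in control males. With normexp the differences were -0.64 for Lalba, -0.82 for Trim55 and -0.73 for Tspan33. With slide as a block they were -1.31, -1.91 and -0.63, so the order of the 3 genes depends on the setting. These figures describe the choice of genes and add nothing to it.

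The distance of mutant males from control males was 1.78 ± 0.30 for Lalba, 3.43-fold higher, 0.98 ± 0.18 for Tspan33, 1.98-fold higher, and 0.11 ± 0.25 for Trim55. Lalba and Tspan33 were called, beside 0.469% of all features (0.0782% higher), and in both the groups did not overlap, as in 8.39% of all features in this direction. This comparison reuses the control males whose low levels chose the genes, so nothing is read from the calls. With slide as a block, neither call stood, while the differences were 1.47 for Lalba and 1.01 for Tspan33. Normexp gave 0.50 for Lalba, without a call, and 0.88 for Tspan33. Leaving out 1 array at a time kept the call in 5 of 12 cases for Lalba and in 2 of 12 for Tspan33, with differences of 1.62 to 2.03 and 0.93 to 1.03. The call of Lalba ended without any one of the mutant males, control male 1 or 2, mutant female 3 or control female 2, and that of Tspan33 stood without control female 2 or 3 and ended without any other array.

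Set against control females, mutant males were at -0.28 ± 0.30 for Lalba (95% interval -0.94 to 0.38), 0.19 ± 0.18 for Tspan33 (-0.20 to 0.58) and -1.68 ± 0.25 for Trim55 (-2.23 to -1.13). The intervals of Lalba and Tspan33 span 0 and do not show equal levels: for Lalba they leave room for a level 0.94 below that of control females. Trim55 was called, beside 0.402% of all features (0.329% lower), with groups that did not overlap, as in 4.29% of all features in the lower direction. Its call did not stand with slide as a block, at a difference of -1.80, nor without mutant male 1 or 3 or control female 1 or 2, at differences of -1.83 to -1.52 over all arrays left out.

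As a share of the control sex gap, mutant males regained 86.3% for Lalba, 124% for Tspan33 and 6.12% for Trim55, where 0% is the mean of control males and 100% that of control females. Leaving out each array in turn gave 78.0% to 99.97% for Lalba, 103% to 166% for Tspan33 and -2.64% to 16.7% for Trim55. The highest values of Lalba and Tspan33 came without control female 3, the array of that group that shared a slide with the mutant females. Both control groups enter this share, and they also chose the genes.

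Other features called lower in control males were set beside the members. Of 17 features called lower there, 15 were not members, and their shares ran from -61.8% to 61.8% with a median of 16.2%; 11 were under 25% and 0 above 75%. The highest was Cpne5, a copine, at 61.8%. Dcaf12l2, a gene related to ubiquitin ligase adaptors, had 12.7%. H2ap, a histone-like gene, had -50.2%, and Adcyap1r1, the receptor of the peptide PACAP, had -61.8%, both standing farther below control females in mutant males than in control males. Xist and Tsix, the RNAs of the X inactivation centre, were not well above background in any male, so their shares near 0 (-0.85% and 0.34%) are those of background signal. Lalba lay above all 15 and Trim55 among them. All share the control embryos and no test is attached. Features that were not called are left out of this set. Nog, picked below for likeness to Lalba, had 1.39 between mutant and control males beside a control sex difference of -1.54. Klf2, picked for likeness to Tspan33, had 0.92 beside -0.67, so a high return was not particular to the members.

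**Figure D2:**
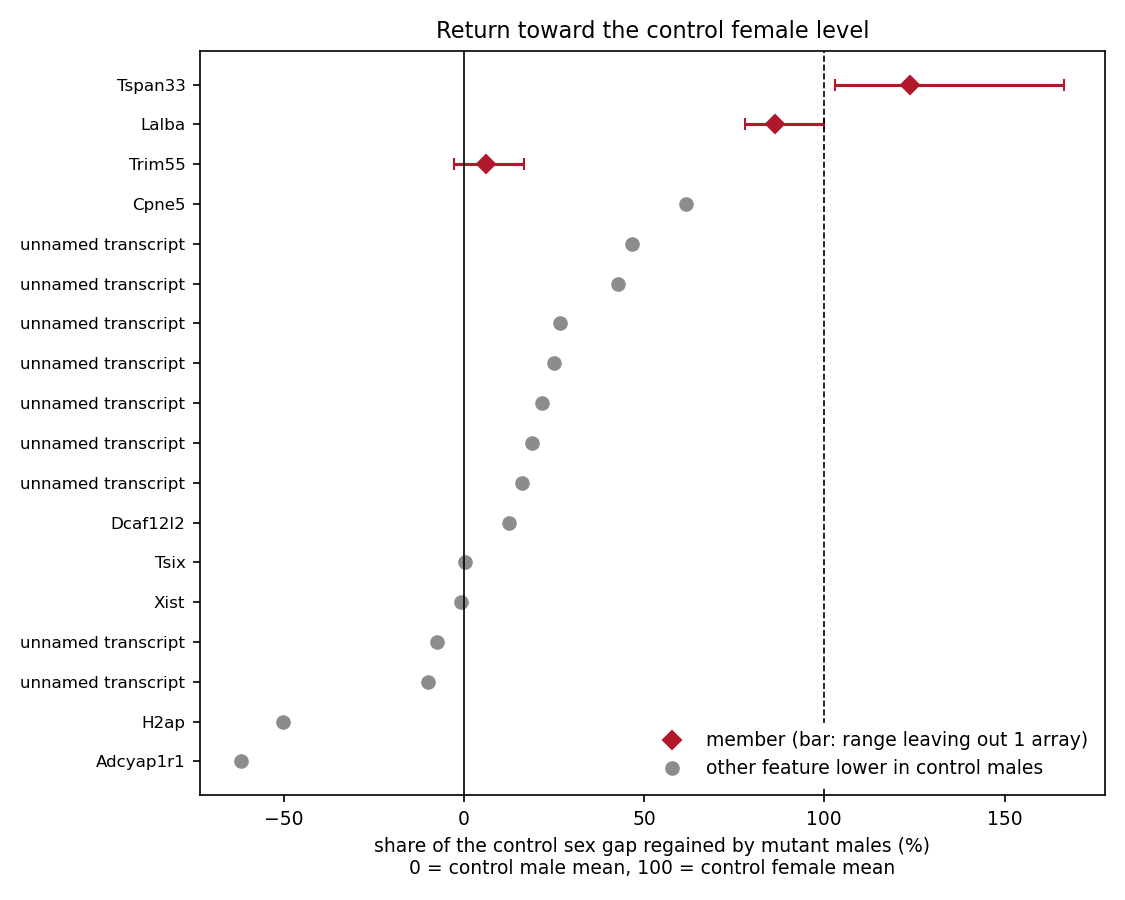
Share of the control sex gap regained by mutant males in percent (x axis, where 0 is the control male mean and 100 the control female mean). Red diamonds are the 3 genes, with bars from the lowest to the highest value leaving out 1 array. Grey points are the 15 features called lower in control males that were not members. Tspan33 was not called lower there, with a control gap of 0.79. Tspan33 and Lalba lie at 124% and 86.3%, Trim55 at 6.12%, and the others between -61.8% and 61.8%.

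The sex difference among mutants compares embryos outside the control contrast of the rule, and was tested, although earlier results of these data were known. The spread behind its SE, interval and p-value was taken over all 12 arrays, control embryos included. Mutant males minus mutant females gave -1.44 ± 0.25 for Trim55, 2.71-fold lower (95% interval -1.99 to -0.89), with a limma adjusted p = 0.077. Lalba gave -0.94 ± 0.30 (-1.60 to -0.28; limma adjusted p = 0.35) and Tspan33 -0.33 ± 0.18 (-0.72 to 0.07; limma adjusted p = 0.48). None of the 3 passed at 0.05 over all features, where 0.13% were called (0.0782% lower), although in each gene all 3 mutant males lay below all 3 mutant females, as in 8.67% of all features in this direction. Set beside the control gap, the mutant gap was 80.5% as wide for Trim55, 45.5% for Lalba and 41.2% for Tspan33. Of the 15 features called lower in control males that were not members, 10 were called lower in mutant males too. In the 15 the mutant gap ran from 47.5% (Cpne5) to 111% of the control gap.

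These tests depend on how slide and scale are handled. Mutant males and mutant females shared no slide, and with slide as a block, which links them through the controls, the difference turned to 0.06 for Lalba and 0.27 for Tspan33 and stayed at -1.78 for Trim55 (limma adjusted p = 0.98, 0.84 and 0.83). A fit with the brightness of each array as a covariate, added after the data were examined, gave -0.28 for Lalba, -0.09 for Tspan33 and -1.71 for Trim55. Trim55 passed when arrays were weighted by quality (-1.67, limma adjusted p = 0.0065), a setting that called 127 features here against 25 in the main fit. It also passed when arrays were centred on their median (-1.53, limma adjusted p = 0.014), where 24 features were called.

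Mutant females minus control females gave 0.66 ± 0.30 for Lalba, 0.52 ± 0.18 for Tspan33 and -0.24 ± 0.25 for Trim55. None of the 3 was among the 0.355% of features called (0.00521% higher), and in all 3 the groups overlapped, while they did not in 12.8% of all features. Control female 3 had the highest Lalba and Tspan33 of its group and was on the slide of the mutant females, and without it the differences were 0.94 and 0.72. They were lowest at 0.44 for Lalba without control female 1 and at 0.36 for Tspan33 without control female 2, and with slide as a block they were 0.09 and 0.11. With array weights, where calls over all features were far more frequent, both genes were called. The difference between the sexes in the mutant effect was 1.12 ± 0.42 for Lalba, 0.47 ± 0.25 for Tspan33 and 0.35 ± 0.35 for Trim55. It was 0.14 for Lalba with normexp and 0.90 for Tspan33 with slide as a block. Over all features this limma contrast called 0 (0.0%), and 701 had an unadjusted p under 0.05, so a mutant effect particular to males is not shown for any of the 3.

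Groups that shared a slide allow a look free of slide. On slide 2, mutant males 2 and 3 averaged -1.62 against -1.78 in control females 1 and 2 for Lalba, 1.61 against 1.23 for Tspan33, and -2.28 against -0.48 for Trim55. The embryos of each group were apart for Trim55 and Tspan33 and interleaved for Lalba. On slide 1, mutant male 1 exceeded the mean of 3 control males by 1.47 for Lalba, 1.01 for Tspan33 and 0.12 for Trim55. On slide 3, mutant females exceeded control female 3 by 0.09 for Lalba and 0.11 for Tspan33, and Trim55 differed by -0.02. With 1 or 2 arrays on a side, these values have no test.

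**Figure D3:**
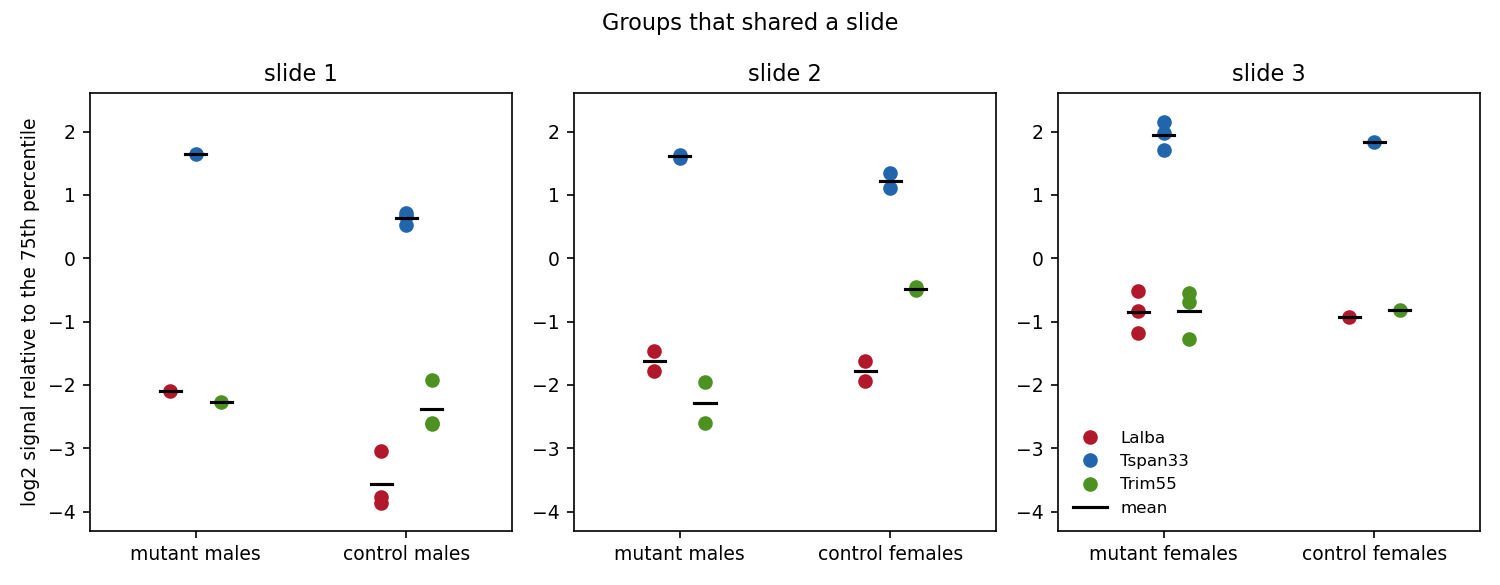
Log2 signal relative to the 75th percentile (y axis) of Lalba, Tspan33 and Trim55 for the groups on each slide (x axis), with points for embryos and black lines for means. On slide 2 mutant males and control females lie together for Lalba (-1.62 and -1.78) and apart for Trim55 (-2.28 and -0.48).

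Few other genes of milk were measurable. Of 15 genes on a list of lactose synthase and milk genes, 5 were tested, Lalba included. Among mutants 0 of 5 were called in either direction, with a median sex difference of -0.31 beside 0.05 for all features. In mutant minus control males 5 of 5 stood above 0, with a median of 0.63 beside -0.05 for all features. In control males minus control females 5 of 5 stood below 0, with a median of -0.63 beside 0.04. B4galt1, the partner of Lalba in lactose synthase, had 3.12 in mutant males and 2.89 in control males (difference 0.23 ± 0.22). The caseins Csn1s1, Csn2 and Csn3 and the mucin Glycam1 were never well above background, and the whey protein Wap was so on 1 array for each of its probes. Stat5a, which carries the prolactin signal, differed between mutant and control males by 0.63 ± 0.26, with no control male array well above background. Elf5, a transcription factor of the mammary alveolus and trophoblast, was well above background in 3 mutant males, 0 control males, 2 mutant females and 3 control females. Elf5 differed between mutant and control males by 1.30 ± 0.67, and between mutant and control females by -1.66 ± 0.67. In that comparison of females 4 of the 5 tested genes stood above 0, Lalba among them at 0.66. Between mutant and control males 1 of the 5 was called, Lalba, beside 0.469% of all features. That comparison reuses the control males whose low levels chose Lalba, so nothing is read from the call.

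Among the relatives of Tspan33, all tested genes lay above 0 in mutant minus control males. Of the TspanC8 genes, Tspan5, Tspan14, Tspan15, Tspan17 and Tspan33 were tested, and among mutants 0 of 5 were called, with a median of -0.11. In mutant males, Tspan5 exceeded control males by 0.40 ± 0.20 and Tspan15 by 0.24 ± 0.19. Tspan17 did so by 0.18 ± 0.14 and Tspan14 by 0.18 ± 0.10, against 0.98 for Tspan33. Tspan33 alone was called, beside 0.469% of all features, in a comparison that reuses the control males whose low levels chose it. In females the same differences were 0.34 for Tspan5, 0.24 for Tspan15, 0.15 for Tspan17 and 0.11 for Tspan14. Tspan10 was never well above background, and Adam10 was not analysed here.

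Trim55 was chosen by the difference between control males and control females. In that comparison 1 of 5 tested genes of the MuRF list was called, Trim55 itself, beside 0.177% of all features. Trim54, which also binds the sarcomere, stood at -2.88 in mutant males and -3.68 in mutant females, and at -3.02 in control males and -3.36 in control females, with a mutant sex difference of 0.81 (limma adjusted p = 0.37) opposite in sign to that of Trim55. Trim63, the ligase of muscle wasting, was well above background in all females, in 1 control male and in no mutant male. Its levels did not split by sex as the flags did. They averaged -4.99 in mutant males, -4.36 in control males, -4.79 in mutant females and -3.98 in control females. The sex difference was -0.38 ± 0.34 in controls and -0.19 ± 0.34 among mutants (limma adjusted p = 0.81). No titin (Ttn) probe was ever well above background, and Sqstm1 and Nbr1, autophagy receptors known to bind Trim55, differed by 0.13 and -0.01 among mutants. Among mutants 0 of the 5 tested genes of this list were called, with a median of -0.01.

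**Figure D4:**
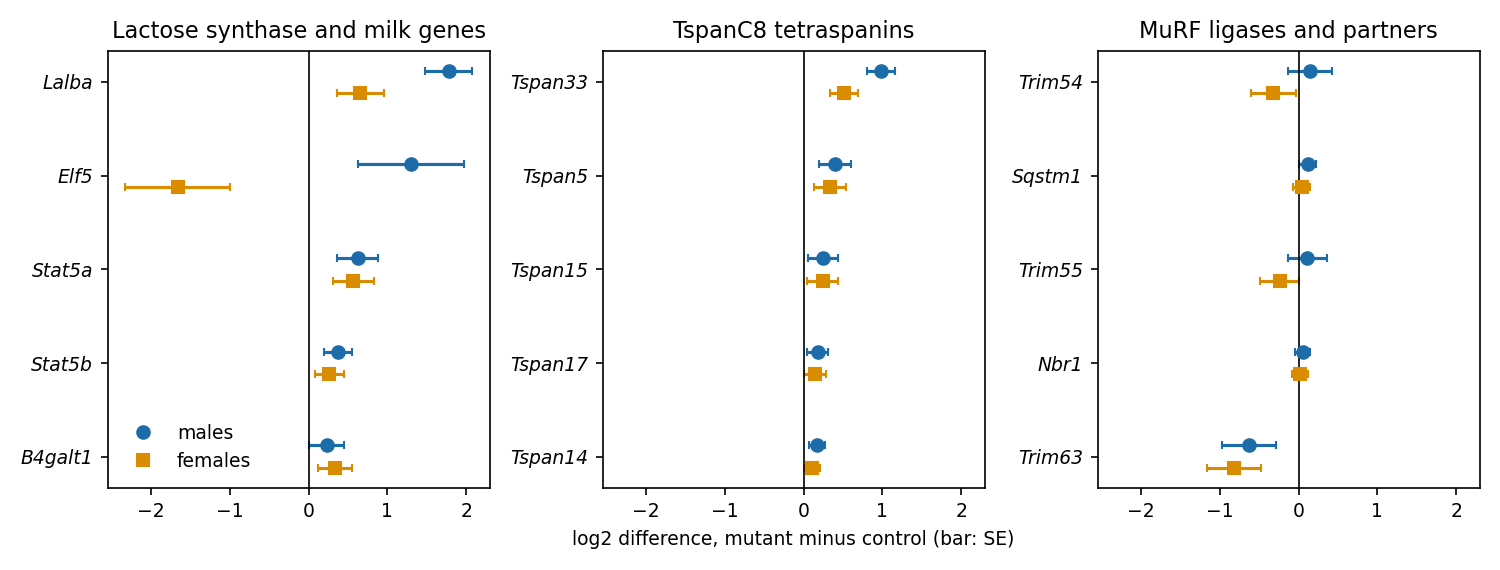
Log2 difference of mutant minus control embryos with SE (x axis) in males (blue circles) and females (orange squares) for the tested genes of the 3 lists (y axis). Lalba (1.78) and Tspan33 (0.98) are the highest of their lists in males, and Trim55 lies near 0 (0.11).

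Markers of other cells were read beside the members. Striated muscle genes had 10 tested members, of which 8 stood above control females in control males. Their median in that comparison was 0.19 beside 0.04 for all features, with 0 called. Their summed levels were 9.78 to 11.3 in mutant males, 27.0 to 36.4 in control males, 10.1 to 10.8 in mutant females and 20.3 to 29.1 in control females, in units of the 75th percentile. Myl7, an atrial myosin light chain chosen after its values were seen, differed by -2.81 ± 0.22 between mutant and control males. Between mutant and control females Myl7 differed by -2.93 ± 0.22, and it was the 1 member of the list called in each. Its log2 means were 4.28 in control males and 3.97 in control females, the highest of the list in both. They were 1.47 in mutant males and 1.04 in mutant females. The sums are on a linear scale, so Myl7 weighs most in those of the controls. The median of the list between mutant and control males was -0.43. Myod1 and Myh3 were never well above background. Erythroid genes, in whose cells Tspan33 is known, were lower in 6 of 6 tested members in control males than in control females, with a median of -0.95, and higher in 6 of 6 in mutant males than in control males, with a median of 0.42; none was called. Their sums spanned 23.3 to 278 in mutant males, 27.7 to 209 in control males, 19.5 to 406 in mutant females and 47.0 to 682 in control females, far wider within a group than the levels of Tspan33. Mesonephric epithelium genes were higher in 7 of 8 members in mutant males than in control males, with a median of 0.67 and sums of 1.57 to 2.18 in mutant males against 0.84 to 0.97 in control males; 0 were called, and each of the 8 was well above background on some array. Wnt9b, a signal of the nephric duct, differed by 1.89 ± 0.49. Cdh1, the epithelial cadherin, differed by 1.71 ± 0.34, with no control male array well above background; it was chosen after its values were seen. Both differences lie near the 1.78 of Lalba. The part of these cells in the levels of Lalba, Tspan33 and Trim55 was not tested.

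The remaining lists held 1 call among mutants. The epithelial list (Krt5, Krt14, Krt8, Krt18, Trp63 and Epcam), which stands for glandular sources of Lalba, had 4 tested members, 0 called among mutants, and Trp63 never well above background. Between mutant and control males, Epcam, an epithelial adhesion molecule, had 0.99 ± 0.27 and was not called, and Krt14, a basal keratin, had -0.81 ± 0.14 and was called; between control males and control females they had -0.50 and 0.27. Gonadal somatic genes, those of the cells sought, had 0 of 6 called, with a median of -0.26. They stood above 0 in 6 of 6 for mutant minus control males (median 0.28) and in 6 of 6 for mutant minus control females (median 0.29), and below 0 in 5 of 6 for control males minus control females (median -0.24), with 0 called in each, the direction of Lalba and Tspan33 at smaller size. Cbx2, a Polycomb protein needed for testis formation, had 0.53 ± 0.25, 0.51 ± 0.25 and -0.41 ± 0.25 in these comparisons, and the part of these cells in the levels of the members was not tested. Among mutants, germ cell genes had 0 of 3 called, endothelial genes 0 of 5, and macrophage and B cell genes 0 of 2, with Ptprc and Cd79a never well above background. Of the ovary pathway, 6 of 9 genes were tested and 0 called among mutants, with a median of -0.15. Between mutant and control males 5 of 6 stood above 0 with a median of 0.34, and between control males and control females 6 of 6 stood below 0 with a median of -0.41, with 0 called in either. Between mutant and control males Lef1 had 0.44 ± 0.25, Msx1 0.37 ± 0.20, Fst 0.06 ± 0.34 and Wnt4 -0.02 ± 0.23. Of the testis pathway, 9 of 11 were tested. Sry alone was called among mutants, and was not well above background in either of those groups. Between mutant and control males 4 of the 9 were called lower and 0 higher, beside 0.469% of all features, with a median of -1.05. Between control males and control females 3 were called higher and 0 lower, beside 0.177%, with a median of 1.35.

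The genes most like Lalba over the 12 arrays were Nog, an antagonist of BMP signals (Pearson r = 0.98), Serpinb6d (0.97), Trmt44 (0.96), Stk35os1 (0.95) and Zfhx3 (0.95). Serpinb6d was not well above background in any male. Nog averaged -2.81 in mutant males, -4.20 in control males, -1.89 in mutant females and -2.65 in control females, the same order of groups as Lalba. Most like Tspan33 were Klf2, a transcription factor induced by blood flow (0.98), Dhrs3, a retinal reductase (0.97), Megf6 (0.96), Tox3 (0.96) and Unc5b, a netrin receptor (0.95). Klf2 averaged 4.11 in mutant males, 3.18 in control males, 4.46 in mutant females and 3.85 in control females. Like Trim55 were Commd2 (0.96), Xist (0.95), Tsix (0.94) and Ralgapa1 (0.92). Commd2 averaged 1.19 in mutant males, 1.08 in control males, 1.63 in mutant females and 1.65 in control females, so it too followed sex. These genes were picked from all others for the highest r, the arrays share slides and groups, and the values describe likeness and nothing more. Among the members, r was 0.93 between Lalba and Tspan33, 0.62 between Lalba and Trim55 and 0.45 between Tspan33 and Trim55. The arrays' own brightness moved with all 3, with r of 0.83 for Lalba, 0.74 for Tspan33 and 0.60 for Trim55 against log2 of the 75th percentile over the same 12 arrays, and its part in the likeness was not tested.

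The members lie on chromosomes 15 (Lalba), 6 (Tspan33) and 3 (Trim55), none of them a sex chromosome. Next to Lalba in RefSeq order, Olfr279, an olfactory receptor gene, differed between mutant and control males by 0.32 ± 0.12 and Ccdc184, with 17 annotated genes between, by -0.24 ± 0.23, against 1.78 for Lalba. Next to Tspan33, Smo, the transducer of hedgehog signals, differed by 0.29 ± 0.18 and Tnpo3, a nuclear import factor, by -0.14 ± 0.11. Next to Trim55, whose control sex difference was -1.79, Pde7a, a phosphodiesterase, had a control sex difference of -0.26 ± 0.12 and 4632415L05Rik one of -0.20 ± 0.16. None of these 6 neighbours was called between mutant and control males, where 0.469% of all features were, so nothing is read from that count.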

How the data were processed

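RNA of single embryos was amplified linearly and labelled with Cy3, per the labels' protocols, and read with Agilent Feature Extraction 10.5.1.1 on array design 014868, built on mm9, per the file headers. The deposited intensity values are background-subtracted processed signals on a linear scale, not scaled between arrays. Log2 of this signal minus the 75th percentile of each array was computed. Control spots and outlier spots were left out and spots of a probe averaged, which left 41174 probes; 27479 matched 18749 symbols of the RefSeq table of GRCm38.p6 by accession. Testing needed a probe well above background (the scanner's flag) in all 3 embryos of some group, with the brightest probe standing for its gene (19176 features).

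With limma 3.58.1 (R 4.3.3), 1 mean per group was fitted on the 12 arrays, without slide, with Benjamini-Hochberg adjustment over all features at 0.05. The p-values weigh a difference against the spread between arrays of single embryos within groups. In mutant males and control females, which lay on more than 1 slide, that spread also holds slide. Mutant males and mutant females shared no slide, and their p-values take no account of it. The members, gene lists and tests were chosen with earlier results of these data known. Genes were named as members, list members (up to 4 of the smallest p, small families in full), the 5 of highest r (1 gene is not reported here), nearest measured neighbours, and symbols called lower in control males. Alternatives were quantile normalization, normexp (offset 50, on median signals, as the files hold no mean, with local backgrounds marked as outliers set to the median of the array), filters on dim probes, probes tested separately, groups compared alone, array weights, slide or replicate block, median centring, array brightness as a covariate, and leaving out each array. The fit was tested on simulated data. Figures were drawn with matplotlib 3.10.9.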

Additional observations from a re-analysis of the deposited data

How the results depend on the processing

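Over 11 other settings the difference of mutant males minus mutant females ran from -1.03 to 0.06 for Lalba, -0.42 to 0.27 for Tspan33 and -1.78 to -0.77 for Trim55, with adjusted p of 0.115 to 0.977, 0.175 to 0.932 and 0.0065 to 0.829. Its sign turned for Lalba (0.064) and Tspan33 (0.269) with slide as a block, and Trim55 passed with array weights (-1.67) and median centring (-1.53); the cause was not tested. Leaving out 1 array gave -1.11 to -0.77, -0.45 to -0.23 and -1.66 to -1.28, and no call. The share of the control gap regained was 112% for Lalba and 160% for Tspan33 with slide as a block, 174% for Tspan33 with array weights, and -14.1% for Trim55 with normexp, where the median of all features was 0.12 for mutant males minus mutant females and 0.11 for control males minus control females. Leaving out 1 array gave 78.0% to 99.97%, 103% to 166% and -2.64% to 16.7%. The replicate block changed the sign of no member's difference among mutants (-0.94, -0.33 and -1.44; adjusted p = 0.23, 0.53 and 0.17), and ended the control sex call of Trim55 and the male call of Tspan33; same-numbered arrays correlated from -0.53 to 0.43, with 6 of 18 pairs above 0.1, so the numbers were not taken as pairs.

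Counts of called features moved more. Mutant males minus mutant females gave 25, against 11 with probes well above background on all arrays, 10 with only the groups compared, 127 with array weights, 7 with slide as a block, 16 with the replicate block and 10 with brightness; leaving out 1 array gave 11 to 38. Control males minus control females gave 34, against 10 with only the groups compared, 237 with array weights and 13 with slide; leaving out 1 array gave 19 to 40. Mutant males minus control males gave 90, against 35 without a filter, 26 with only the groups compared, 2856 with array weights, 52 with slide and 54 with brightness; leaving out 1 array gave 26 to 93. Mutant females minus control females gave 68, against 43 without a filter, 34 with only the groups compared, 5809 with array weights, 13 with slide, 42 with brightness and 41 with median centring; leaving out 1 array gave 31 to 133, the highest without control female 3. Mutant males minus control females gave 77, against 29 with only the groups compared, 828 with array weights and 35 with slide; leaving out 1 array gave 40 to 73. The mutant effect by sex gave 0, against 8 with slide and 1 with brightness, and 0 leaving out any 1 array.

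The control sex call of Lalba ended with normexp, only the groups compared, slide and brightness, and that of Trim55 with normexp, only the groups compared, slide and the replicate block. The call of Lalba between mutant and control males stood in 6 of 11 settings, as did that of Tspan33. Of 342 other values of the members, 330 moved by less than 1 SD between replicates, 12 moved by more and 0 called values changed sign. In the 250 bases before the start alone, 9.42% of promoters hold AACAAT, 4.08% AAGGTCA, 9.99% AGATAA and 66.2% CANNTG. Precision is limited by 3 arrays per group, and the Lalba probe was dim in control males.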
